A study of Homo sapiens with 6 samples.

Results

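Homologous recombination and Fanconi anaemia genes were followed in HCT116 cells, an epithelial line from a human colorectal carcinoma, after siRNAs against CDK4 and CDK6. The 39 genes were chosen as a functional list, and every probe set whose annotated symbol field names a gene of the list was taken. Probe sets were found for 35 of the 39, out of 21357 genes named on the array, and BRCA2, FANCA, FANCD2 and RBBP8 were not analysed here. The brightest probe set over the 6 arrays stood for each gene, and 22 of the 35 genes had more than 1.

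All cells were transfected with a lipid reagent in medium without antibiotics. In the treated group an siRNA pool aimed at CDK4 and a single siRNA aimed at CDK6 were used, each at 30 nM. The control group received 30 nM each of a non-targeting pool and of a negative control siRNA from the same product lines. RNA was taken 96 h after transfection, and each group holds 3 arrays called biological replicates. Whether these came from cultures begun separately is not stated, so the tests reflect only how far these particular arrays scatter, which may be technical. HCT116 is 1 line, and knockdown leaves part of each target's RNA, which limits the groups as a model. CDK4 and CDK6 are the cyclin D dependent kinases that phosphorylate the retinoblastoma protein in G1.

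Homologous recombination repairs double-strand breaks from the sister chromatid and is used mainly in S and G2 phase. The MRN complex and its partners recognise and resect the broken end, the checkpoint kinases ATM and ATR signal it, and BRCA1, PALB2 and BRCA2 act with further factors to start strand exchange with the intact copy. The Fanconi pathway unhooks crosslinks between DNA strands: its core complex ubiquitylates the FANCD2 and FANCI pair, and nucleases bound by SLX4 cut the crosslinked fork. The BLM helicase and MUS81 with EME1 then resolve the joined DNA.

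Promoters of 5 of the genes are printed here because they set the 3 genes with the most stable rises, ATR, RAD51C and PALB2, beside BRIP1, which was also higher, and FANCC, which was lower. Each line gives the 180 bases before the most upstream start listed for the gene, 5′ to 3′, from RefSeq on GRCh38.p14. Capitals mark matches on either strand to an E2F-type site (TTTCCCGC, TTTCGCGC, TTTGCCGC or TTTGGCGC), the cell cycle element CHR (TTTGAA or TTTAAA), the CCAAT box or the E-box CACGTG, which MYC and MAX bind.
ATR (chr3:142578734-142578913, minus strand): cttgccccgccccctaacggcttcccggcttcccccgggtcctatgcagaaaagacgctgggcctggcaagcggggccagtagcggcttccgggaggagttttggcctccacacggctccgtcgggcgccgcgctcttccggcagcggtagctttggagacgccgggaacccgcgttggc
RAD51C (chr17:58692393-58692572, plus strand): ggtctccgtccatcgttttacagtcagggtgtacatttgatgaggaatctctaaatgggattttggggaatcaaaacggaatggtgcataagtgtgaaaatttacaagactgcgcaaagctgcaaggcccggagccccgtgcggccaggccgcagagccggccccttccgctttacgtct
PALB2 (chr16:23641311-23641490, minus strand): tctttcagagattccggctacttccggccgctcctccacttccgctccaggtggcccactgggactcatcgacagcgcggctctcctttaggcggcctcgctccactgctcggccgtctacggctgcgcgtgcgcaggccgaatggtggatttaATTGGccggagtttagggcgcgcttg
BRIP1 (chr17:61863529-61863708, minus strand): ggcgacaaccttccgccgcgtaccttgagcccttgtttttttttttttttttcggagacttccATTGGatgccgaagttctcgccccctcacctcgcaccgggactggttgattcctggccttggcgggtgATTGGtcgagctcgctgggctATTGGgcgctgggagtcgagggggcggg
FANCC (chr9:95317710-95317889, minus strand): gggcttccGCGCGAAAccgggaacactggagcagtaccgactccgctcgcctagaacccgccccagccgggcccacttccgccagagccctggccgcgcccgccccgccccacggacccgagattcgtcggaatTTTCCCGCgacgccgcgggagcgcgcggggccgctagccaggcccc
The ATR and RAD51C stretches held none of these letters. PALB2 had 1 CCAAT box and BRIP1 had 3, all read from the opposite strand. FANCC had 2 E2F-type matches, while the window of another FANCC start held none of these letters. The promoter table held 31 of the 35 measured genes, with windows from 250 bases before to 50 after a start. E2F-type letters were found for 3 of these 31 genes (9.68%), FANCC, RMI1 and XRCC2, against 3.99% of all 27305 genes of the table and 14 of 17 DNA replication genes. The CHR letters were found for 6 of 31 (19.4%), against 27.9% of all genes and 14 of 17 mitosis genes. The CCAAT box was found for 16 of 31 (51.6%), against 39.7% of all genes, and the E-box for 3 (9.68%), against 8.77%. In the genome, matches to different motifs may share bases; in the printed stretches none do. A match is a description of sequence only.

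Values are log2 expression after RMA, the robust multi-array average, which equalises the arrays and summarises the probes of each set. Array medians lay between 5.36 and 5.39, and arrays correlated across genes at 0.998 within groups and at 0.991 to 0.994 between groups. Both targets were lower in every treated array. CDK6 went to 34.0% of control (log2 fold change -1.56, SE 0.055) and CDK4 to 62.2% (-0.69, SE 0.082), with limma adjusted p of 8.79e-06 and 0.000447. Epithelial markers averaged 10.88 to 11.02 over the arrays, while fibroblast, leukocyte and endothelial lists averaged 4.56 to 5.49. Not every marker lay near its list mean. VIL1 of the epithelial list averaged 5.02 in control and 5.09 in treated arrays, and COL1A1 of the fibroblast list 8.09 and 7.59. In those 4 lists KRT8 and KRT18 rose and CDH1 and COL1A1 fell; their part in the repair gene values was not tested.

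Most recombination and Fanconi genes were not called when CDK4 and CDK6 were targeted. The median size of their log2 fold changes, without the sign, was 0.18, above the 0.11 of all probe sets tested. Of the 35 measured, limma called 5 higher and 3 lower at an adjusted p under 0.05, that is 22.9% of them, against a background of 27.2% of the 20284 probe sets tested. ATR, RAD51C, PALB2, NBN and BRIP1 rose, and SLX4, FANCC and ATM fell. The shares by direction were 14.3% higher and 8.57% lower, against 14.2% and 13.0% of all genes. No gene of the list changed 2-fold, as 110 of the 5522 genes called did, and the median log2 fold change was 0.14, against -0.0010 for all genes. The share called was thus near the background, while the median lay above that of all genes; on the mean of all probe sets of each gene the list median was 0.085.

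The sign of the small differences leaned upward. Fold changes were above 0 for 27 genes and below 0 for 8, where the median of all genes was -0.0010. All 3 treated arrays lay above all 3 controls for 13 genes (37.1%) and below them for 4 (11.4%), against 20.8% and 20.3% of all genes (41.1% either way). For 9 of these 17 genes the test was not passed, with limma adjusted p from 0.05001 to 0.0896. Control replicate 3 was the lowest control for 23 of the 35 genes, and CDK4/6 siRNA replicate 3 the highest treated array for 19. The same counts over all genes are not given here. Without control replicate 3 the median fell to 0.066 and the counts were 3 higher and 3 lower. They were 3 and 0 without control replicate 2 or without CDK4/6 siRNA replicate 3, and 6 and 1 without CDK4/6 siRNA replicate 2.

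**Figure D1:**
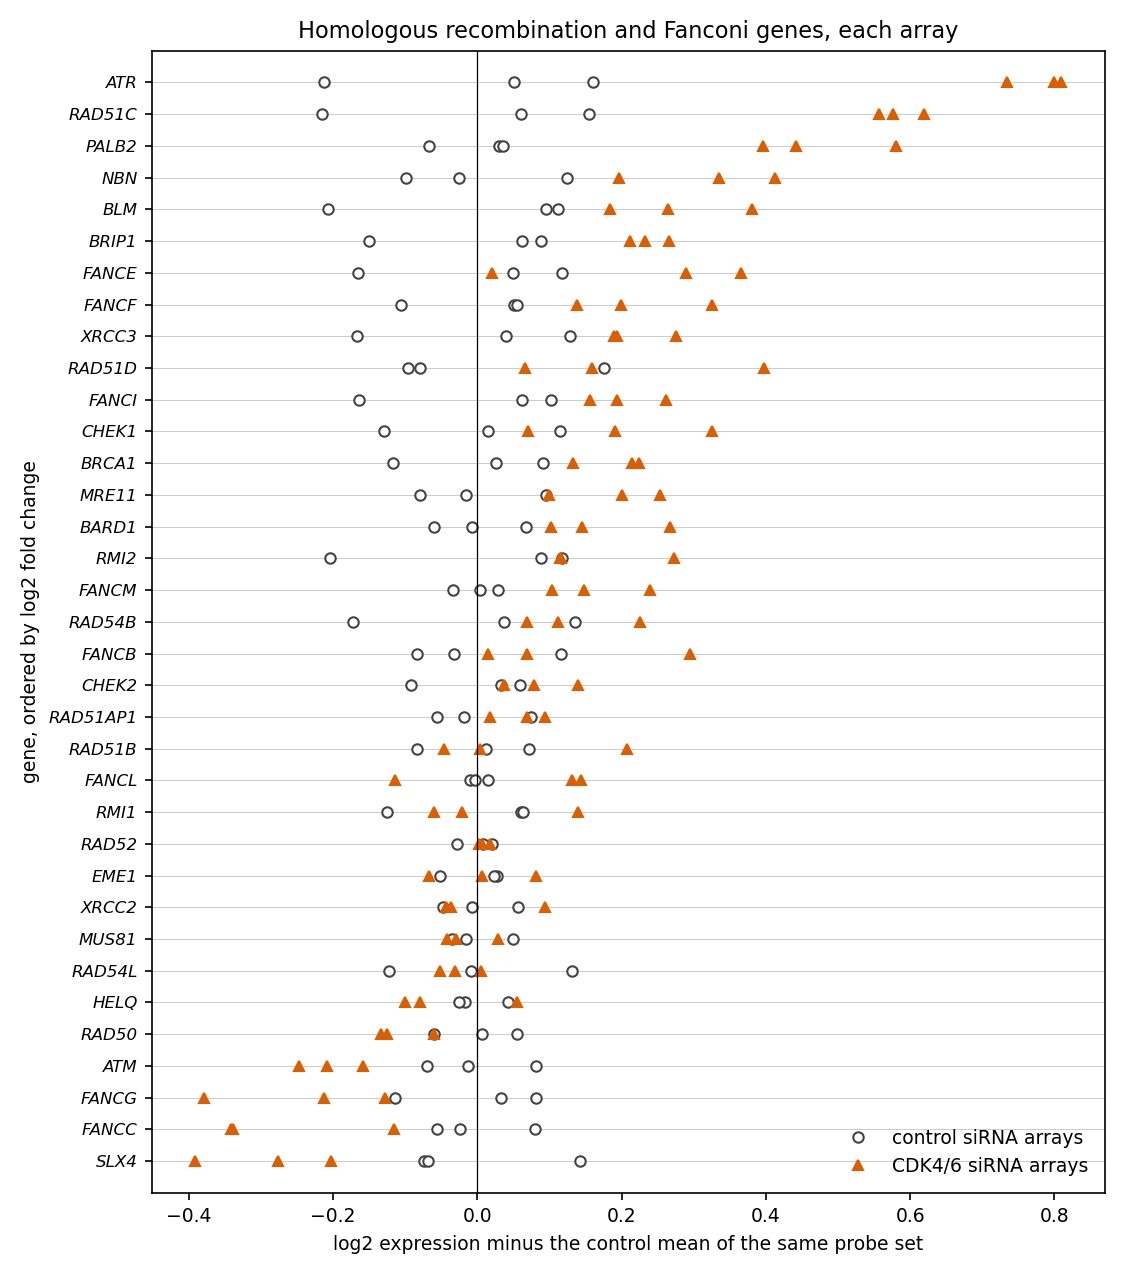
Each row is a gene, each open circle a control siRNA array and each triangle a CDK4/6 siRNA array, plotted as log2 expression minus the control mean of the same probe set, with 3 arrays per group. ATR, RAD51C and PALB2 stand clear of their controls at the top, SLX4, FANCC, FANCG and ATM lie below at the foot, and the groups overlap for 18 genes.

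The scaling of the arrays sets how many of these small differences pass. The hybridisation spike-ins, RNAs added to the hybridisation mix, averaged 10.04 in control and 9.92 in treated arrays. By array they averaged 10.05, 10.06 and 10.02 in control and 9.95, 9.86 and 9.94 in treated arrays. Being added at that step, they do not measure RNA per cell. With the arrays scaled to 9 spike-in probe sets the median of all genes moved by 0.12. Rises then made up 81.0% of calls, where the deposited scaling gave 52.2%. On that scale 20 of the 35 genes were called higher and 0 lower by limma, against 26.9% and 6.32% of all genes, and the list median was 0.26. SLX4 (-0.17), FANCC (-0.14) and ATM (-0.082) then lost their calls, with limma adjusted p of 0.138, 0.184 and 0.403. At an unadjusted p under 0.05 the number lower on that scale was 0. Values not said to be on the spike-in scale are on the deposited one, that is, relative to most genes.

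Among the damage checkpoint kinases, ATR rose and ATM fell. ATR, which with ATRIP responds to single-stranded DNA at stalled forks, gave 8.41, 8.30 and 8.04 in the controls and 8.98, 9.06 and 9.05 in the treated arrays. The lowest treated value lay 0.57 above the highest control. Its log2 fold change was 0.78 (SE 0.091, 95% interval 0.57 to 0.99), or 1.72-fold, with a limma adjusted p of 0.000413, and it stood at place 161 of the 20284 fold changes in order of rise. A second ATR probe set rose by 0.89 (SE 0.084, limma adjusted p = 0.000227 over all 54613 probe sets), and the dimmest of its 3, at a mean of 3.72, gave -0.069 and did not pass.

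ATM, the kinase activated by double-strand breaks, gave 8.03, 7.94 and 7.88 in the controls and 7.74, 7.79 and 7.71 after CDK4/6 siRNA. The groups did not overlap, but by only 0.089. It fell by 0.20 (SE 0.060, to 86.8% of control, limma adjusted p = 0.0343). The call was lost without control replicate 1 (-0.16), control replicate 2, CDK4/6 siRNA replicate 1 or CDK4/6 siRNA replicate 3. The 5 dimmer ATM probe sets lay between -0.10 and 0.032 and none of them passed; on the mean of all 6 the value was -0.075 (limma adjusted p = 0.327).

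CHEK1, the effector kinase of ATR, depends on the probe set. Its brightest one gave 8.67, 8.57 and 8.43 in the controls and 8.63, 8.75 and 8.88 in the treated arrays, which overlap, and 0.20 (SE 0.085) did not pass (limma adjusted p = 0.134). The next, only slightly dimmer, gave 8.36, 8.39 and 8.28 against 8.72, 8.80 and 8.73, with no overlap. That probe set rose by 0.41 (SE 0.064, limma adjusted p = 0.00214 over probe sets). The other 2, both dimmer, gave 0.17 (adjusted p = 0.193) and -0.23 (adjusted p = 0.0516) and did not pass. CHEK2, the effector of ATM, gave 0.085 (SE 0.062, 95% interval -0.056 to 0.23) with overlapping groups and did not pass.

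Of the BRCA1 group, PALB2 and BRIP1 rose, and BRCA1 and BARD1 stayed short of the threshold. PALB2, which bridges BRCA1 and BRCA2, was even across the controls at 8.08, 8.09 and 7.98 and reached 8.49, 8.45 and 8.63 after CDK4/6 siRNA. The gap between the groups was 0.36. It rose by 0.47 (SE 0.066, 95% interval 0.32 to 0.62), or 1.39-fold, with a limma adjusted p of 0.000965, on its single probe set.

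BRIP1, the helicase that binds BRCA1, gave 8.09, 8.06 and 7.85 in the controls and 8.21, 8.27 and 8.23 in the treated arrays. It rose by 0.24 (SE 0.072, limma adjusted p = 0.0390), or 1.18-fold, and its dimmer probe set gave 0.12 and did not pass. This was among the least secure of the calls: it was lost without any single array other than control replicate 1, with limma adjusted p from 0.0552 to 0.102, and the value was 0.16 without control replicate 3.

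BRCA1 gave 8.05, 7.99 and 7.85 in the controls and 8.10, 8.19 and 8.18 in the treated arrays. The groups did not overlap, by 0.041, and 0.19 (SE 0.068, 95% interval 0.036 to 0.34) did not pass (limma adjusted p = 0.0702). BARD1, its partner in the ubiquitin ligase, gave 0.17 (SE 0.065, limma adjusted p = 0.0866), again with no overlap. Its other probe sets gave 0.15 and 0.12. Every treated array lay above every control for these 4 measured genes, as for 20.8% of all genes, and BRCA1 and BARD1 did not pass the test.

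Of the 9 strand exchange factors only RAD51C was called. It forms complexes with RAD51B, RAD51D, XRCC2 and XRCC3 that assist strand exchange, and it gave 9.15, 9.06 and 8.78 in the controls and 9.55, 9.57 and 9.62 in the treated arrays. Control replicate 3 was the low control here, yet the lowest treated array lay 0.40 above the highest control. The rise was 0.58 (SE 0.091, 95% interval 0.38 to 0.79), or 1.50-fold, with a limma adjusted p of 0.00164. The other RAD51C probe set rose by 0.40 (SE 0.076).

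The other 8 genes of this role did not pass. XRCC3 (0.22, SE 0.079, limma adjusted p = 0.0744) had treated arrays above all controls, and RAD51D (0.21, SE 0.10) did not. RAD54B, a DNA translocase, gave 0.14 (SE 0.085). RAD51AP1, which promotes strand pairing, was bright and flat, with 9.66, 9.53 and 9.56 in the controls and 9.60, 9.65 and 9.68 in the treated arrays. XRCC2 (0.0047), the annealing protein RAD52 (0.0090) and the translocase RAD54L (-0.026) lay near 0, with 95% intervals of -0.14 to 0.14, -0.11 to 0.12 and -0.19 to 0.14.

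RAD51B cannot be read from these probe sets. The brightest of its 4, at a mean of 4.82, gave 0.055 and did not pass. Of the others, 1 rose by 0.41 (limma adjusted p = 0.0327 over probe sets) and 1 fell by 0.40 (adjusted p = 0.00961). All 4 were dim, with means from 4.40 to 4.82. RAD51B was the only member with calls in both directions.

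**Figure D2:**
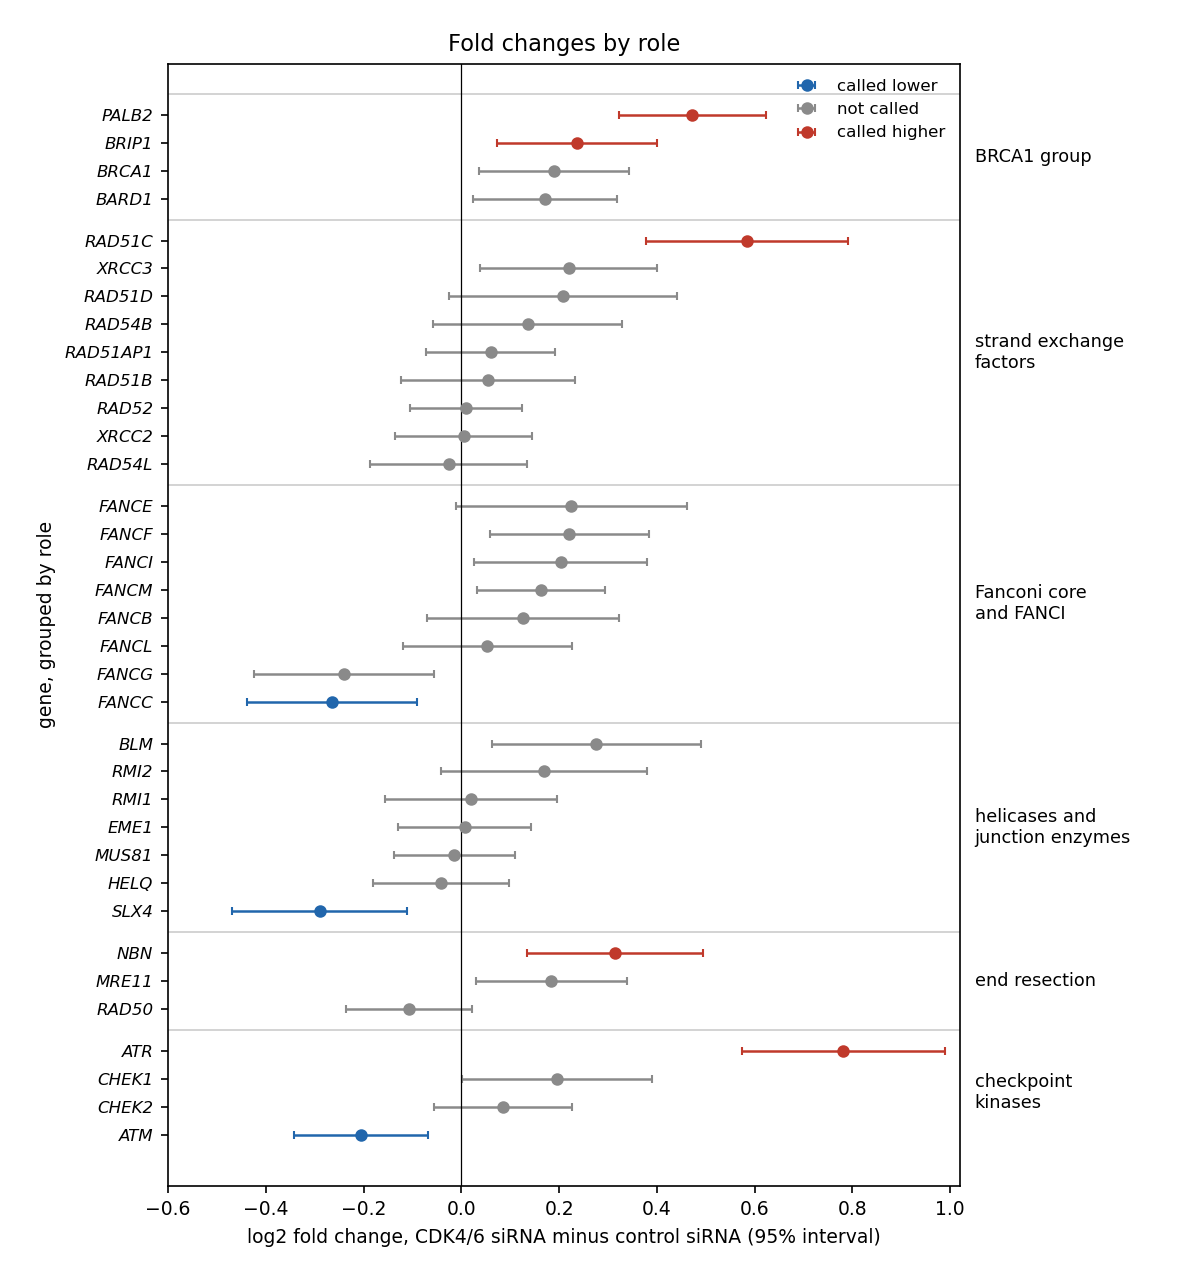
Points are log2 fold changes, CDK4/6 siRNA minus control siRNA with 3 arrays per group, bars are 95% intervals from limma, and genes are grouped by role. Red genes were called higher and blue ones lower; ATR at 0.78 and RAD51C at 0.58 lie farthest from 0, and most Fanconi genes lie between 0.053 and 0.23.

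In the Fanconi core complex the only call was a fall of FANCC. FANCC, a core subunit, gave 7.74, 7.77 and 7.88 in the controls and 7.68, 7.46 and 7.46 in the treated arrays, so that CDK4/6 siRNA replicate 1 lay close to the controls. It fell by 0.26 (SE 0.076, to 83.2% of control, limma adjusted p = 0.0309). The call was lost without control replicate 2, control replicate 3, CDK4/6 siRNA replicate 2 or CDK4/6 siRNA replicate 3, with adjusted p from 0.0673 to 0.105. The 2 other FANCC probe sets, both dim, gave -0.041 and -0.12 and did not pass, and on the mean of all 3 the value was -0.14 (limma adjusted p = 0.126). FANCG, a core subunit, gave 7.94, 7.89 and 7.74 against 7.73, 7.48 and 7.64. Its groups were only 0.014 apart, and -0.24 (SE 0.081) did not pass (limma adjusted p = 0.0576).

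Other Fanconi genes had positive values short of the threshold. FANCF, the adaptor of the core complex, gave 6.28, 6.44 and 6.44 against 6.71, 6.53 and 6.59, with no overlap. Its value of 0.22 (SE 0.072) missed by the narrowest margin of the list (limma adjusted p = 0.05001), and its second probe set gave 0.21. FANCE, the subunit that binds FANCD2, gave 0.23 (SE 0.10), the translocase FANCM 0.16 (SE 0.058) and FANCB 0.13 (SE 0.087). FANCI, which pairs with FANCD2 as the substrate, gave 0.20 (SE 0.078, limma adjusted p = 0.0896), while its second probe set gave -0.027. FANCL, the ubiquitin ligase subunit, gave 9.29, 9.26 and 9.27 in the controls and 9.16, 9.42 and 9.41 in the treated arrays, spread on both sides of them.

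Of the helicases and junction enzymes SLX4 alone was called. SLX4, the scaffold that binds structure-specific nucleases, gave 6.73, 6.94 and 6.73 in the controls and 6.60, 6.52 and 6.41 in the treated arrays, all lower by at least 0.13. It fell by 0.29 (SE 0.079, to 81.8% of control, limma adjusted p = 0.0239). Its other probe set gave 0.17 and did not pass, and with the mean of both the value was -0.058. The call was lost without control replicate 2 (-0.22), CDK4/6 siRNA replicate 2 or CDK4/6 siRNA replicate 3 (-0.24).

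BLM, the helicase that dissolves double junctions, gave 7.76, 7.74 and 7.44 in the controls and 7.83, 7.91 and 8.03 in the treated arrays. The groups did not overlap, and control replicate 3 lay well under the other controls. The value of 0.28 (SE 0.094) did not pass (limma adjusted p = 0.0605) and was 0.17 without that array. Its partners RMI1 and RMI2 gave 0.020 (SE 0.077) and 0.17 (SE 0.093) with overlapping groups. The nuclease subunits MUS81 and EME1 gave -0.014 and 0.0070, with 95% intervals of -0.14 to 0.11 and -0.13 to 0.14, and the helicase HELQ -0.042 (SE 0.061).

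In end recognition and resection, NBN rose on its brightest probe set only. NBN, the MRN subunit that recruits ATM, gave 9.89, 9.74 and 9.67 in the controls and 9.96, 10.10 and 10.18 in the treated arrays, a gap of 0.072. It rose by 0.31 (SE 0.079, limma adjusted p = 0.0171), or 1.24-fold. Its 4 dimmer probe sets gave 0.079, 0.012, -0.058 and -0.10 and did not pass, and on the mean of all 5 the value was 0.049. The call was lost without control replicate 2, control replicate 3 or CDK4/6 siRNA replicate 3, with adjusted p from 0.0570 to 0.0659.

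MRE11, the nuclease of the complex, gave 0.18 (SE 0.068, limma adjusted p = 0.0786) with groups that did not overlap. RAD50, its ATPase, differed between probe sets. The brightest gave 8.95, 9.07 and 9.02 against 8.88, 8.95 and 8.89, which overlap, and -0.11 (SE 0.057) did not pass (limma adjusted p = 0.222). The second gave 7.08, 7.12 and 6.86 against 7.48, 7.33 and 7.39, with no overlap, and rose by 0.38 (SE 0.083, adjusted p = 0.0117 over probe sets).

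**Figure D3:**
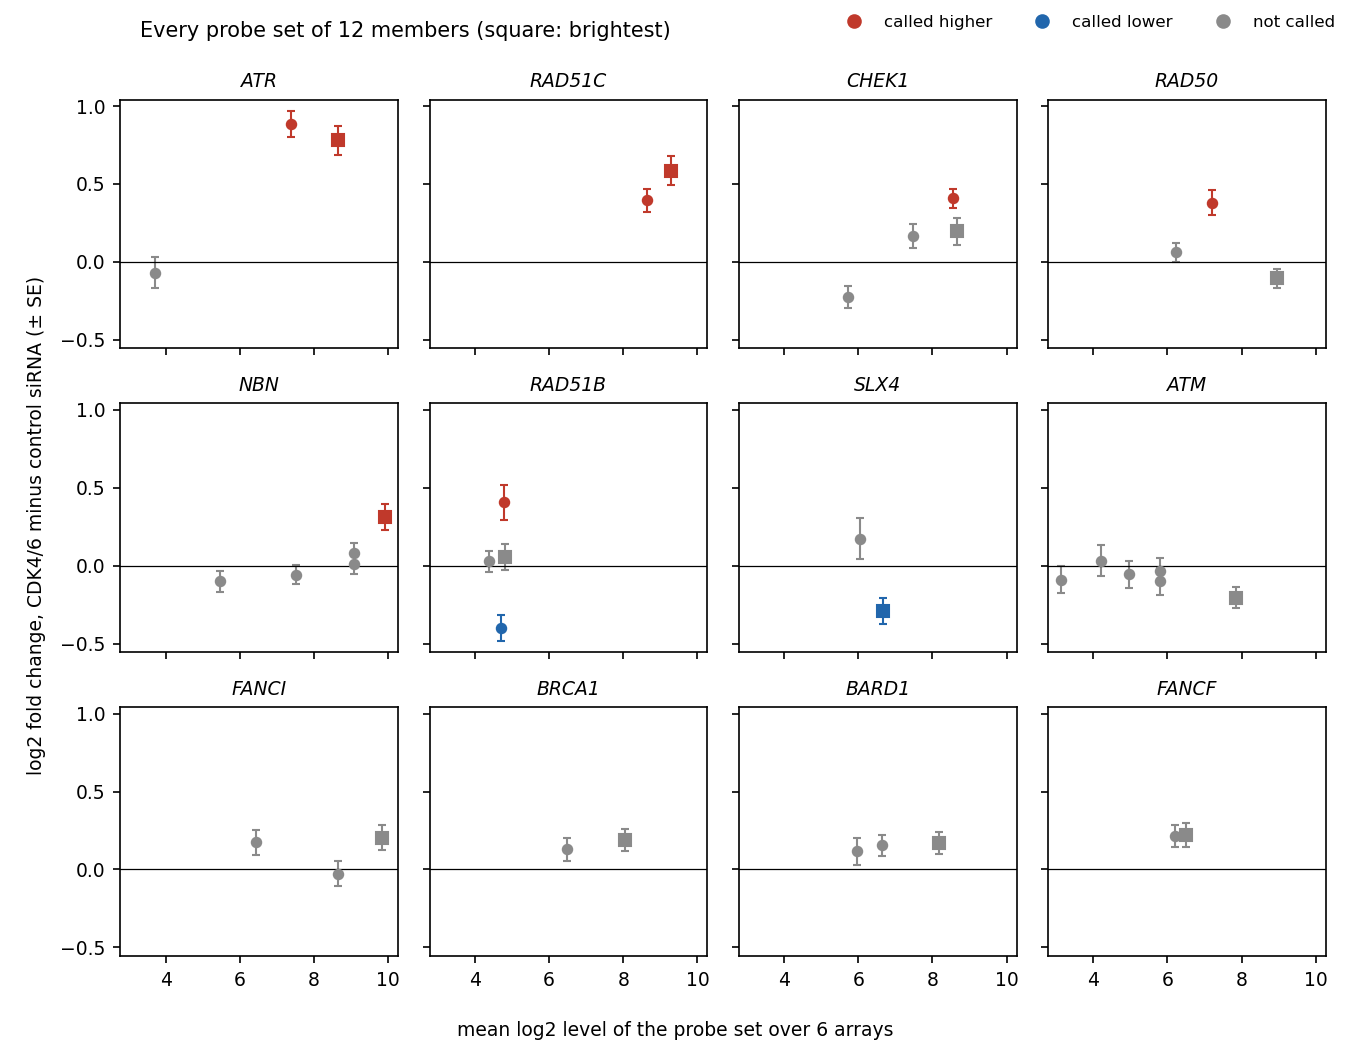
Every probe set of 12 members is plotted by its mean log2 level over the 6 arrays and its log2 fold change with SE, each probe set tested separately; squares are the brightest of each gene, red called higher, blue lower, grey not called. The 2 brighter ATR probe sets and both RAD51C probe sets rose together, while those of CHEK1, RAD50, NBN, RAD51B and SLX4 disagreed. ATM and FANCI also had probe sets of either sign.

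Over all 84 probe sets of the 35 genes, tested separately with limma, 9 were called higher (10.7%) and 2 lower (2.38%), against 8.86% and 8.17% of all probe sets. Those higher belonged to ATR, RAD51C, PALB2, NBN, CHEK1, RAD50 and RAD51B. Those lower belonged to SLX4 and RAD51B. BRIP1, FANCC and ATM lost their calls under this adjustment, with adjusted p of 0.0659, 0.0510 and 0.0664.

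Other genes of the pathway gave more calls. Among 48 further recombination and Fanconi genes limma called 15 higher (31.2%) and 5 lower (10.4%), against 14.2% and 13.0% of all genes. Their median was 0.094. On the spike-in scale these counts were 25 and 1, against 26.9% and 6.32% of all genes. EME2, which pairs with MUS81, rose by 0.49 (SE 0.071), RPA2, a subunit of the protein that coats single-stranded DNA, by 0.44 (SE 0.072), and the nuclease FAN1 by 0.35 (SE 0.063). A probe set that names CENPS, a FANCM partner, together with the readthrough CENPS-CORT rose by 0.50. Their limma adjusted p ran from 0.00106 to 0.00371. Among genes that work with ATR, TOPBP1 rose by 0.28 and CLSPN by 0.51, a probe set that names ATRIP with a second gene gave 0.19 (adjusted p = 0.0913), and ETAA1 fell by 0.22. These 4 were chosen after their values were seen.

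Non-homologous end joining, which seals breaks without a template, gave shares of calls near those of all genes. Of its 16 measured genes limma called 3 higher (18.8%) and 2 lower (12.5%), against 14.2% and 13.0% of all genes. Their median was 0.035. With the spike-in scaling 6 were higher and 1 lower, against 26.9% and 6.32% of all genes. LIG4, its ligase, rose by 0.38 (SE 0.057) and the ligase partner XRCC4 by 0.30 (SE 0.060). MAD2L2, a shieldin subunit, fell by 0.29 (SE 0.052), and a probe set that names NHEJ1 together with SLC23A3 fell by 0.37 (SE 0.052).

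Lists of DNA replication and mitosis genes had medians farther from 0 than the repair genes. Of 20 replication genes 16 rose and 0 fell by limma, with a lowest value of 0.043 and a median of 0.58, among them MCM10 (1.11), TIPIN (0.77), CDC6 (0.67) and GINS3 (0.66). Among 20 mitosis genes the median was -0.37, 17 fell and 0 rose, with a highest value of 0.089, including MKI67 (-0.72), NEK2 (-0.71), CDC25C (-0.59) and KIF20A (-0.56). With the spike-in scaling 18 replication genes rose and 0 fell, and 12 mitosis genes fell and 0 rose. Of all genes 26.9% rose and 6.32% fell on that scale. The mean level of the replication list ran from 8.48 to 8.86 in the controls and from 9.21 to 9.28 in the treated arrays, and that of the mitosis list from 10.24 to 10.27 and from 9.87 to 9.95. The mean of the 35 repair genes ran from 7.63 to 7.76 and from 7.80 to 7.87. Control replicate 3 was lowest of the controls for the replication, the mitosis and the repair genes alike. In RNA from whole cultures a change in the share of cells in a cycle phase and a change in RNA per cell cannot be told apart, and the part of either in the repair gene values was not tested.

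**Figure D4:**
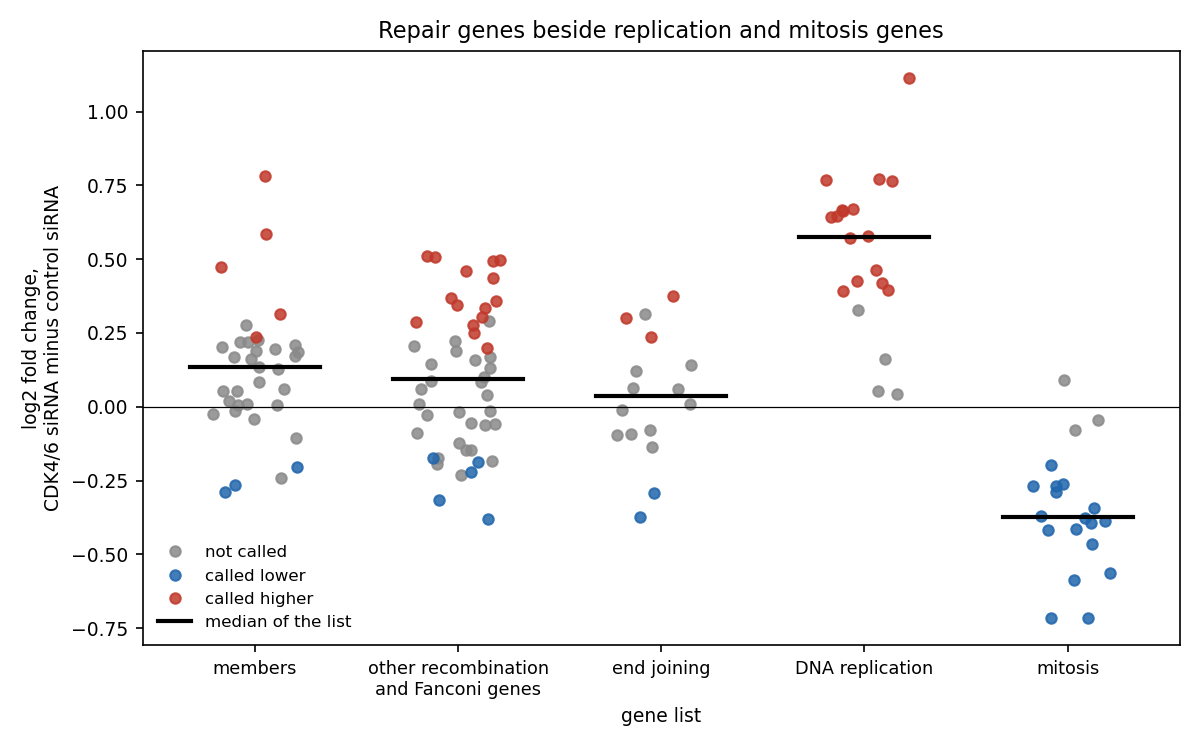
Each point is a gene, plotted by its log2 fold change, CDK4/6 siRNA minus control siRNA with 3 arrays per group, and black bars are list medians. The 35 members centre on 0.14, between replication genes at 0.58 and mitosis genes at -0.37.

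Several of the genes share a promoter region with a neighbour that is read the other way. For 12 of the 31 members held in the promoter table such a neighbour was measured, with a RefSeq start within 1000 bases. The other members could not be searched. This search was made after the values were seen. Of the 13 neighbours limma called 6 higher and 3 lower, against 14.2% and 13.0% of all genes; the difference from all genes was not tested. ATM and NPAT, an activator of histone transcription whose start lies 429 bases away, went in opposite directions: ATM fell by 0.20 and NPAT rose by 0.29 (SE 0.057, limma adjusted p = 0.00545). PALB2 and the dynactin gene DCTN5, 156 bases away, both rose (0.47 and 0.24, adjusted p = 0.0420 for DCTN5). SLX4 and DNASE1, 154 bases away, both fell (-0.29 and -0.32, adjusted p = 0.00834 for DNASE1). The neighbour of RAD51AP1, FERRY3, rose by 0.70 (SE 0.077, adjusted p = 0.000313), beside a value of 0.060 for RAD51AP1 itself. BRCA1 has alternative RefSeq starts that lie far apart, and 2 measured neighbours. NBR1, which starts 82 bases from a BRCA1 start, fell by 0.35 (SE 0.065, adjusted p = 0.00431), beside 0.19 for BRCA1. NBR2, which starts 193 bases from a BRCA1 start, gave -0.0047 (SE 0.052, adjusted p = 0.965) and did not pass.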

How the data were processed

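HCT116 cells after CDK4/6 or control siRNA were measured on 6 single-channel Affymetrix arrays, 3 per group. The authors deposited RMA values on a log2 scale, per the submitters' processing notes; its version and any filter applied are not stated. RMA compresses changes of dim probe sets and hides a change in total RNA per cell. The number of arrays limits the precision.

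Of 54675 probe sets, 62 are array controls; the platform annotation gives 1 symbol to 41097, several to 1801 and none to 11777. Each of 21357 symbols was represented by its brightest probe set (mean of 6 arrays), also where that set names several genes, which left 20284 probe sets to test; 1791 genes share theirs. Symbols were checked by gene identifier against a RefSeq table of GRCh38.p14: 41043 probe sets with 1 symbol matched and 0 symbols differed. CDK4/6 siRNA minus control siRNA was fitted with limma 3.58.1 (lmFit, eBayes) in R 4.3.3, on group alone, and p-values were adjusted by Benjamini-Hochberg across every probe set tested. A gene was called at an adjusted p under 0.05. Intervals are 95% from the moderated fit.

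The members, lists and tests were chosen with earlier results of these data known. Named are CDK4, CDK6, all members, and up to 4 called genes of each other pathway list with the smallest adjusted p; neighbours of promoters and 4 ATR cofactors were added after seeing the values. Alternatives were a replicate block, other scalings, filters, probe set choices, variance models, a threshold of 0.01 and leaving out each array.

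On simulated data with 20284 genes, of which 40% changed with an SD of 0.35, the fit called 75% of genes changed by 0.25 and 97% of those changed by 0.5, with 3.22% of calls false. With only 200 genes changed it called 2% and 81%. The simulated noise was independent between genes, without shifts that many genes of an array share, so the shares in the real data may differ. Figures were drawn with matplotlib 3.10.9.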

Additional observations from a re-analysis of the deposited data

How the results depend on the processing

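ATR, RAD51C and PALB2 kept direction and call under every alternative that measured them (21 for ATR and PALB2, 20 for RAD51C); their values ran from 0.53 to 0.90, from 0.48 to 0.71 and from 0.42 to 0.60. The other 5 calls each ended under 6 or more alternatives. Some members not called gained a call in the same direction under other alternatives. These were 8 of 21 for FANCF, 7 of 21 for FANCG, 6 of 20 for BRCA1 and 5 of 21 for BLM. The members called higher, 5 as reported, were 10 with median centring, 9 with the dimmest 25% of genes left out, 8 with eBayes trend, 20 with spike-in scaling, and 3 without variance moderation or at 0.01. The members called lower, 3 as reported, were 4 with quantile normalization, cyclic loess, the dimmest 25% of genes left out or eBayes trend. They were 1 with every probe set tested separately. They were 0 with the mean of all probe sets, with spike-in scaling, without variance moderation or at 0.01. The list median, 0.14, was 0.26 with spike-in scaling and 0.085 with the mean of all probe sets. Among all genes, calls numbered 5522 as reported, 52.2% of them higher, and were 9302 with every probe set tested and 3469 at 0.01. They were 5547 of 20284 with median centring, 56.5% of them higher. With the dimmest 25% left out they were 5885 of 15213, 51.8% of them higher. With 1 array left out the members higher ran from 3 to 7, the members lower from 0 to 3, the median from 0.066 to 0.17 and all calls from 4406 to 4931. On probe sets with a plain name NBN turned to -0.10 and RAD50 to 0.38, since another probe set then stands for the gene, and 28 members were measured. Samples of the 2 groups share replicate numbers, but same-numbered arrays did not deviate together (correlations of -0.0079, -0.12 and -0.0047), and the best correlation of an array was not with its own number. With the replicate block 4 members were higher and 1 lower, and 4917 genes were called. The cause of the other changes was not tested. No detection calls were used, and dim probe sets such as those of RAD51B limit what can be read.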
